A study of Canis lupus familiaris with 6 samples.

Results

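Epithelial cells make colony-stimulating factors, chemokines and other cytokines that act on leukocytes and on neighbouring cells. The 10 genes described here are CSF2, CSF1, CSF3, CCL2, CCL20, CXCL8, IL6, IL1A, LIF and ICAM1, the last an adhesion receptor rather than a cytokine. Members were the probe sets whose only gene symbol in the platform annotation was one of these names, which gave 14 of 42924 probe sets and all 10 of 15115 named genes. The genes were chosen with the 3D minus 2D results of these arrays known, in which CSF2, CCL2 and ICAM1 had already been seen to differ, so their differences, errors and calls, taken from the fit across all probe sets, are a description of these arrays and support nothing further.

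The arrays carried RNA of MDCKII, an established canine kidney epithelial line that polarizes in culture. In the 2D group (3 arrays) the cells were confluent on 60 mm plastic dishes. In the 3D group (3 arrays) they were plated on a Matrigel layer of 100 µl per dish, with 2% Matrigel in the MEM medium, and formed cysts. All RNA was taken 36 h after plating; no agent other than Matrigel is named for either group. Matrigel is an extract of basement membrane that can itself carry growth factors. The labels call the replicates biological without saying what was separate, so errors measure the spread between these samples, which may be technical. Levels come from a bulk RNA extract, in which fewer cells of a kind and less RNA per cell cannot be told apart.

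Many of these genes are inducible through NF-kappaB, a transcription factor held in the cytoplasm by IkappaB proteins such as the product of NFKBIA until a signal releases it. NF-kappaB target genes include those for the IkappaB proteins, which close a feedback loop. The colony-stimulating factors drive growth and differentiation of myeloid cells, chemokines attract leukocytes through G protein-coupled receptors, and IL6 and LIF signal through receptors that share the gp130 subunit and act on JAK kinases and STAT factors. Many cytokine mRNAs are short-lived and are bound by proteins that recognise AU-rich or stem-loop elements.

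The deposited columns lie on separate scales. On the 4 arrays of replicates 2 and 3 the lowest log2 value was 3.39 to 3.44 and the median 7.06 to 7.08, while the replicate 1 arrays reached -3.32 and had medians of 5.42 (2D) and 5.26 (3D). Differences were therefore fitted on replicates 2 and 3 (n = 2 arrays per group), and the replicate 1 pair gives a difference of its own with no error. Of the 8 kidney epithelial markers, EPCAM, KRT8 and KRT18 were the brightest, with mean log2 levels of 13.7, 13.3 and 13.9 on the 4 arrays. The dimmest was PAX2 at 7.18. The brightest leukocyte marker, CD14 at 8.035, and the brightest endothelial marker, CDH5 at 8.395, were above PAX2. The brightest mesenchymal marker was COL1A1 at 7.083. Brightness also depends on the probes, so these levels do not show which cells were present. The 8 kidney epithelial markers had medians of 9.75 to 9.91. The 9 measured leukocyte markers had medians of 6.43 to 6.58, with summed levels of 57.6 and 57.8 in 2D and 58.6 and 58.7 in 3D. Of the 29 measured marker genes of kidney epithelium, leukocytes, endothelium and mesenchyme, counted by list, 0 passed a limma adjusted p of 0.05. Over all 15115 genes 7.28% passed, and nothing about the cells present is read from this count. Poly-A spike-in controls averaged 8.81 and 8.87 on the 2D arrays and 9.83 and 8.98 on the 3D arrays of replicates 2 and 3; their part in the results was not tested.

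Growing MDCKII cells as cysts went with less CSF2 and ICAM1 transcript and more CCL2 transcript, while CSF1, CSF3, LIF and CCL20 showed differences that did not pass. IL6, IL1A and CXCL8 lay near the bottom of the replicate 2 and 3 arrays in both cultures. On replicates 2 and 3, 4 of the 14 probe sets passed a limma adjusted p of 0.05, 1 higher and 3 lower in 3D, from 3 of the 10 genes. Over all probe sets 6.61% passed, 3.65% higher and 2.96% lower; since the genes were chosen on this contrast, nothing is read from the comparison of these shares. The median difference of the 14 was 0.018 on the log2 scale, against -0.005 over all probe sets. Both groups of 2 arrays were separated for 6 of the 14 probe sets, 2 with 3D above and 4 with 3D below 2D, while over all probe sets the groups were apart in 51.8%, with 3D above in 25.1% and below in 26.7%.

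**Figure D1:**
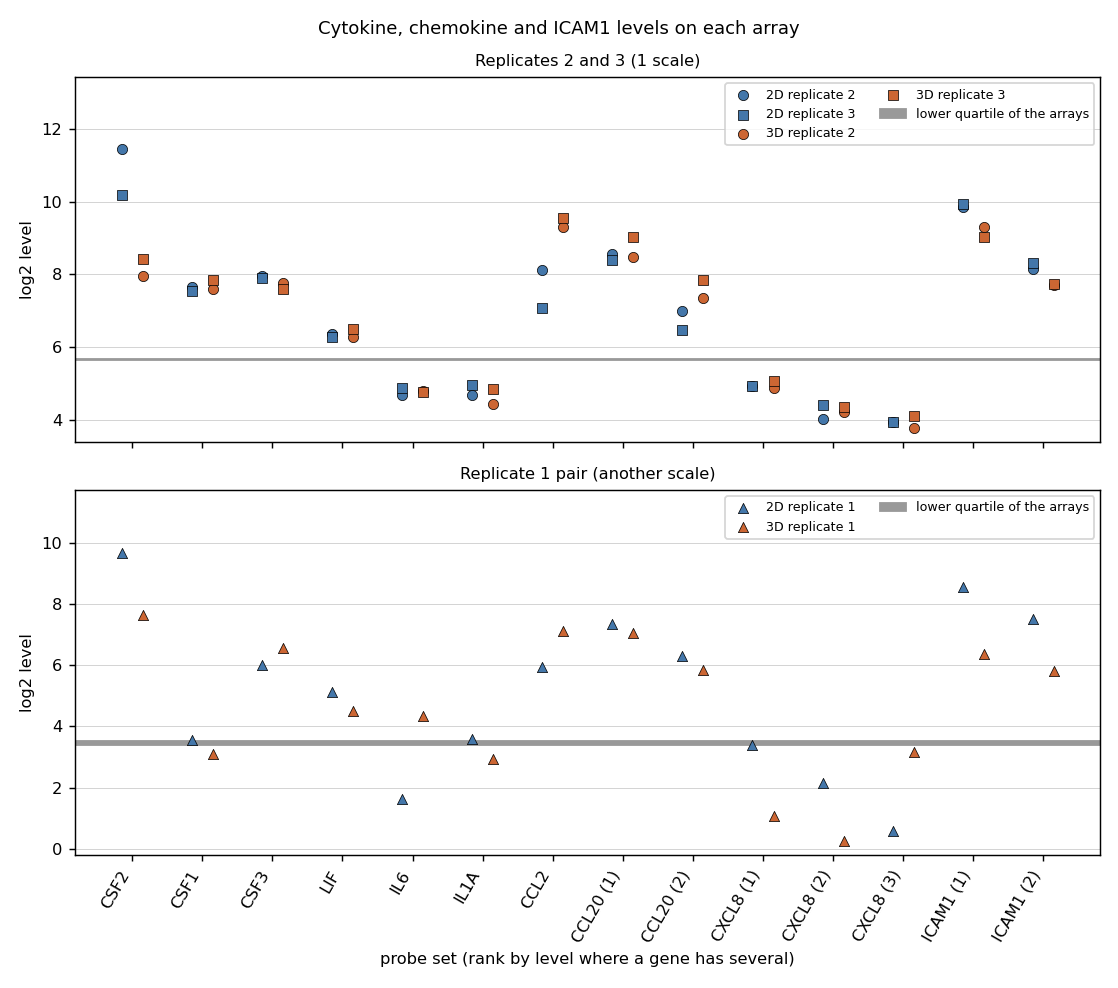
Log2 level of each of the 14 probe sets on each array; the upper panel shows replicates 2 and 3, the lower panel the replicate 1 pair on its own scale, and grey bands mark the arrays' lower quartiles (5.64 to 5.67 above, 3.38 and 3.52 below). CSF2 and both ICAM1 probe sets lie lower in 3D in both panels, CCL2 lies higher, and IL6, IL1A and CXCL8 lie under the grey band on all 4 arrays of replicates 2 and 3.

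CSF2 encodes GM-CSF, the factor for granulocytes and macrophages, and was read by 1 probe set. Its log2 level was 11.45 and 10.18 on the 2D arrays of replicates 2 and 3 and 7.96 and 8.43 on the 3D arrays. Both 2D arrays lay far above both 3D arrays, and the 2D arrays stood further from each other than the 3D arrays did. CSF2 was thus 6.15-fold lower in 3D, with a log2 difference of -2.62 (SE 0.401, n = 2 arrays per group, 95% interval -3.60 to -1.64), and 0.0676% of all probe sets had a larger absolute difference. The replicate 1 pair read 9.65 in 2D and 7.64 in 3D, a difference of -2.01 on that scale. The size of the fall depended on which 2D array was kept: the difference was -1.985 without 2D replicate 2 and -3.255 without 2D replicate 3, -2.385 without 3D replicate 2 and -2.855 without 3D replicate 3, and no probe set of the table passed in any of these fits.

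The 2 monolayer cultures differed from each other in CSF2 by 1.27 on the log2 scale, against a median gap of 0.10 over all probe sets. A wider gap between these 2 arrays was found for 7 of 42924 probe sets. The 3D arrays differed by 0.47, a gap exceeded by 6.35% of probe sets.

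CSF1 encodes the macrophage factor M-CSF and CSF3 the granulocyte factor G-CSF, and neither passed. CSF1 read 7.65 and 7.53 in 2D and 7.59 and 7.84 in 3D, so that the groups overlapped. Its difference was 0.13 (SE 0.125, 95% interval -0.18 to 0.43), and -0.46 in replicate 1. CSF3 read 7.95 and 7.90 in 2D and 7.75 and 7.59 in 3D, so that both 3D arrays lay slightly below both 2D arrays. Its difference of -0.255 (SE 0.108, 95% interval -0.52 to 0.01) did not have the direction of replicate 1, which was 0.56.

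CCL2 encodes MCP-1, a chemokine for monocytes, and was the member that rose, read by 1 probe set. Its log2 level was 8.11 and 7.08 in 2D and 9.31 and 9.56 in 3D on replicates 2 and 3, and 5.94 and 7.10 in the replicate 1 pair. In all 3 replicates the 3D array was above every 2D array of the same scale. CCL2 was 3.58-fold higher in 3D, a log2 difference of 1.84 (SE 0.319, n = 2 arrays a group, 95% interval 1.06 to 2.62), and 1.16 in replicate 1. As for CSF2, the 2D arrays set the error: they differed by 1.03, a gap exceeded by 18 of 42924 probe sets, whereas the 3D arrays differed by 0.25. Without 2D replicate 2 the CCL2 difference was 2.355 and without 2D replicate 3 it was 1.325; without 3D replicate 2 or 3 it was 1.965 or 1.715.

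CCL20, a chemokine for CCR6-bearing lymphocytes and dendritic cells, was read by 2 probe sets that did not pass. The dimmer probe set read 6.98 and 6.46 in 2D and 7.35 and 7.85 in 3D, without overlap. Its difference was 0.88 (SE 0.229, 95% interval 0.32 to 1.44). The brighter probe set read 8.56 and 8.41 in 2D and 8.49 and 9.03 in 3D, with overlap. Its difference was 0.275 (SE 0.188, 95% interval -0.18 to 0.73). In replicate 1 both CCL20 probe sets were lower in 3D, by -0.44 and -0.27, so the direction for CCL20 is not shared by the 2 scales.

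**Figure D2:**
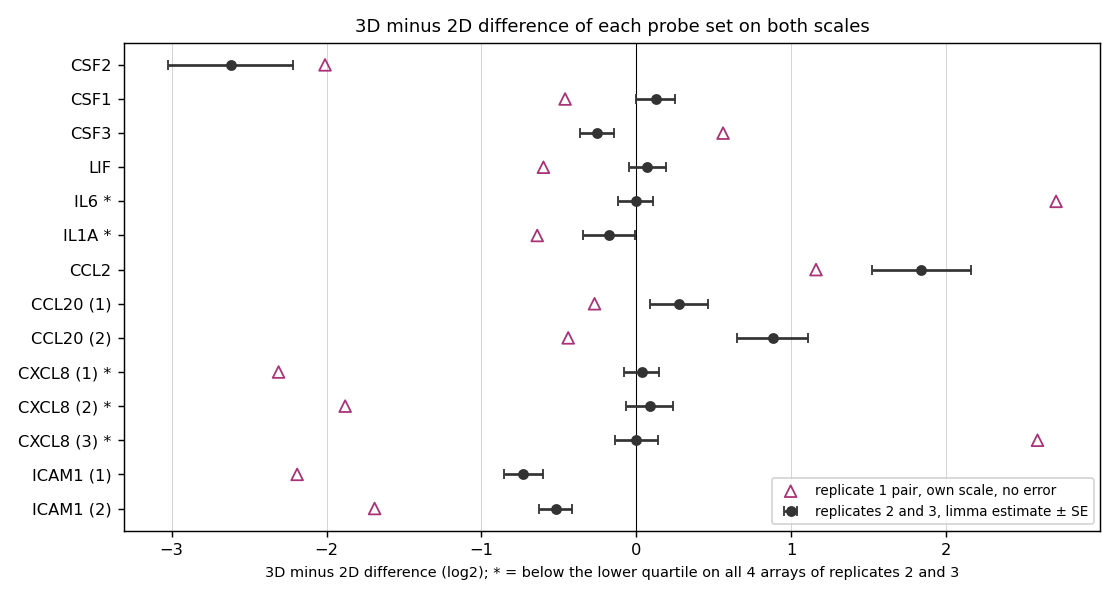
3D minus 2D difference of each probe set on the log2 scale; dots with bars give the limma estimate ± SE on replicates 2 and 3, triangles the replicate 1 pair, and asterisks mark probe sets under the lower quartile on all 4 arrays. CSF2, CCL2 and both ICAM1 probe sets lie on the same side of 0 on both scales, and the marked probe sets have differences near 0 on replicates 2 and 3 but from -2.31 to 2.71 in replicate 1.

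CXCL8, which encodes the neutrophil chemokine interleukin-8, was read by 3 probe sets, IL6 and IL1A by 1 each, and all 5 lay below the lower quartile on each of the 4 arrays of replicates 2 and 3. Their log2 values ran from 3.76 to 5.06, against lower quartiles of 5.64 to 5.67. The brightest CXCL8 probe set read 4.92 and 4.93 in 2D and 4.86 and 5.06 in 3D. IL6, a cytokine of the acute-phase response, read 4.68 and 4.88 in 2D and 4.78 and 4.77 in 3D. IL1A, which encodes the alarm cytokine interleukin-1 alpha, read 4.67 and 4.94 in 2D and 4.43 and 4.83 in 3D. In each of these 3 genes the groups overlapped, and the 5 differences lay between -0.175 and 0.085 (SE 0.112 to 0.169). No detection calls came with the values, so whether these transcripts were present is not known, and a change in a transcript that its probes barely see would not show here.

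The same 5 dim probe sets had wide and opposed differences in replicate 1. IL6 read 1.63 in 2D and 4.34 in 3D, a difference of 2.71. Its 3D value lay above the lower quartile of that array, which was 3.38. The 3 CXCL8 probe sets differed by -2.31, -1.88 and 2.59 in replicate 1, although they are annotated to the same gene. Wide replicate 1 differences are common among dim probe sets. Across the 9552 probe sets below the lower quartile on all 4 other arrays, their middle 90% ran from -3.09 to 2.61. On replicates 2 and 3 it ran from -0.25 to 0.22. The CXCL8 differences in replicate 1 lay inside the wider range, and that of IL6 (2.71) lay above it. Among the 31024 probe sets at or above that quartile on all 4 arrays, the middle 90% of replicate 1 differences ran from -1.90 to 1.62. The replicate 1 differences of CCL2 (1.16) and the dimmer ICAM1 probe set (-1.69) lay inside that range. Those of CSF2 (-2.01) and the brighter ICAM1 probe set (-2.19) lay outside it.

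LIF, leukaemia inhibitory factor, is a gp130 cytokine and read 6.37 and 6.28 in 2D and 6.28 and 6.51 in 3D. The groups overlapped, with a difference of 0.07 (SE 0.120, 95% interval -0.22 to 0.36). The replicate 1 pair differed by -0.60.

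ICAM1 encodes an adhesion receptor that binds the leukocyte integrins LFA-1 and Mac-1, and its probe sets went the same way. The brighter read 9.85 and 9.94 in 2D and 9.30 and 9.03 in 3D. The dimmer read 8.16 and 8.32 in 2D and 7.71 and 7.73 in 3D. On each, both 3D arrays were below both 2D arrays. ICAM1 was 1.66-fold lower in 3D on the first, with a log2 difference of -0.73 (SE 0.126, 95% interval -1.04 to -0.42), and 1.43-fold lower on the second, with a log2 difference of -0.52 (SE 0.107, 95% interval -0.78 to -0.26). In replicate 1 ICAM1 read 8.55 in 2D and 6.36 in 3D on the first and 7.51 and 5.82 on the second, differences of -2.19 and -1.69 on that scale. Unlike CSF2 and CCL2, ICAM1 varied little between the 2D arrays, with gaps of 0.09 and 0.16. The calls were lost when any of the 4 arrays was left out, with differences from -0.865 (without 3D replicate 2) to -0.595 (without 3D replicate 3) on the brighter probe set, and from -0.60 (without 2D replicate 2) to -0.44 (without 2D replicate 3) on the dimmer.

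To set the 6 arrays side by side, each probe set was also ranked within its array, as the percentage of probe sets below it. These percentiles follow 1 probe set across arrays and do not order transcripts, since brightness also depends on the probes. CSF2 stood at the 94.1, 95.02 and 87.7 percentile on 2D replicates 1, 2 and 3 and at the 80.4, 64.1 and 70.4 percentile in 3D. CCL2 stood at 58.0, 66.6 and 50.4 in 2D and at 74.8, 79.9 and 82.8 in 3D. The brighter ICAM1 probe set stood at 87.4, 85.2 and 85.8 in 2D and at 66.0, 79.8 and 77.5 in 3D. For these genes no 3D array overlapped with a 2D array. Without overlap were 4 of the 14 probe sets, 1 with 3D above and 3 below, against 13.7% of all probe sets (6.91% above and 6.82% below); these are the 4 that passed on replicates 2 and 3, which contribute 4 of the 6 arrays, so the 2 counts are not independent. CSF1 shows the limit of this view, with percentiles of 25.3 and 22.2 in replicate 1 and 58.0 to 62.6 on the other arrays.

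**Figure D3:**
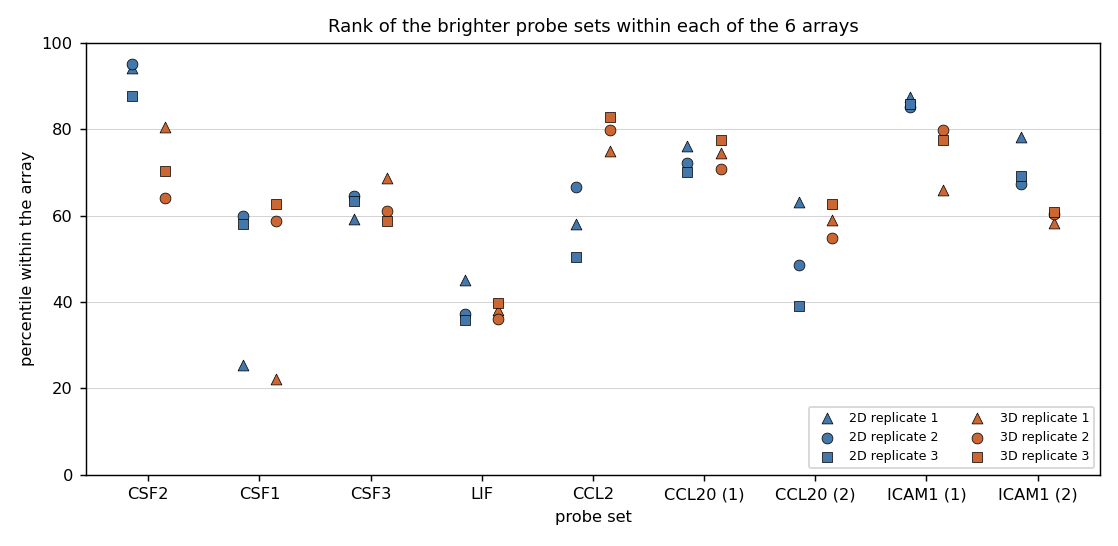
Percentile of the 9 brighter probe sets within each of the 6 arrays (triangles replicate 1, circles replicate 2, squares replicate 3). The 3 points of 2D and the 3 points of 3D are apart for CSF2, CCL2 and both ICAM1 probe sets and overlap for CSF1, CSF3, LIF and both CCL20 probe sets.

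Over the whole group, the replicate 1 difference had the sign of the other replicates in 5 of 14 probe sets and the opposite sign in 8, with 1 CXCL8 probe set at 0.00 on replicates 2 and 3. The 4 member probe sets that passed were among the 5. Of all probe sets that passed, 73.9% had the same sign in replicate 1. In replicate 1, 10 of the 14 were lower in 3D, where 55.9% of all probe sets were lower. The replicate 1 differences given here are not centred, and their median over all probe sets was -0.14. A replicate 1 difference smaller than that in size therefore gives no firm direction.

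The receptors were examined next, with the receptors and adhesion partners of the 10 genes, related cytokines, NF-kappaB components, JAK-STAT components and mRNA-binding proteins held in 5 lists. Of 84 measured genes in these lists 3 were higher and 7 lower in 3D, while 7.28% of all 15115 genes passed, 4.17% higher and 3.12% lower, each gene read by its brightest probe set. All 10 calls were lost when any of the 4 arrays was left out, and all kept their direction.

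Among 15 measured receptor and partner genes the median difference was -0.05; 1 passed as lower, 0 as higher, and 14 stayed short of the threshold. The gene that fell was LIFR, the LIF receptor subunit that pairs with gp130. LIFR read 9.21 and 9.23 in 2D and 7.90 and 7.76 in 3D, a log2 difference of -1.39 (limma adjusted p = 0.00544, SE 0.105, n = 2 arrays per group). The other LIFR probe set fell by 1.445 (limma adjusted p = 0.00465, SE 0.0999), and the replicate 1 differences were -1.55 and -1.91. LIF itself differed by 0.07, and IL6ST, which encodes gp130, by -0.255 (SE 0.166, limma adjusted p = 0.430). Of the GM-CSF receptor subunits, CSF2RA was dim (4.64 and 4.77 in 2D, 4.58 and 4.52 in 3D), and CSF2RB differed by -0.01 (SE 0.101, limma adjusted p = 0.988).

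The list of other cytokines and chemokines had 29 measured genes, among them the adhesion receptor VCAM1 and the receptor IL1R2, which is also in the receptor list. Of these, 1 passed as higher and 3 as lower, 25 did not, and the median was -0.06. CCL28, a mucosal chemokine, rose from 6.09 and 6.14 in 2D to 7.64 and 8.35 in 3D. Its difference was 1.88 (SE 0.226, limma adjusted p = 0.0136), 1.25 on its second probe set (SE 0.252, limma adjusted p = 0.0437), and 3.04 and 1.21 in replicate 1. CCL17, a chemokine for CCR4-bearing T cells, fell from 10.67 and 10.31 to 9.27 and 9.26, a difference of -1.225 (SE 0.141, limma adjusted p = 0.0129) and of -0.83 in replicate 1. The chemokine genes that passed thus went in both directions, CCL2 and CCL28 upward and CCL17 downward. CCL5, CCL25, CXCL10, CXCL12, CXCL14, CXCL16 and CX3CL1 of the same list did not pass.

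TNFSF10, which encodes the death ligand TRAIL, read 11.22 and 11.15 in 2D and 10.03 and 10.19 in 3D. It fell by 1.075 (SE 0.109, limma adjusted p = 0.0103) and its second probe set differed by -1.345 (limma adjusted p = 0.00858, SE 0.124). CLCF1, a further gp130 cytokine, fell by 0.605 (SE 0.107, limma adjusted p = 0.0325), from 7.24 and 7.11 to 6.52 and 6.62. In replicate 1 both were lower in 3D as well, TNFSF10 by -1.72 and -1.45 and CLCF1 by -0.52. IL1B, which encodes interleukin-1 beta, also lay below the lower quartile of these 4 arrays, at 4.99 to 5.15.

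**Figure D4:**
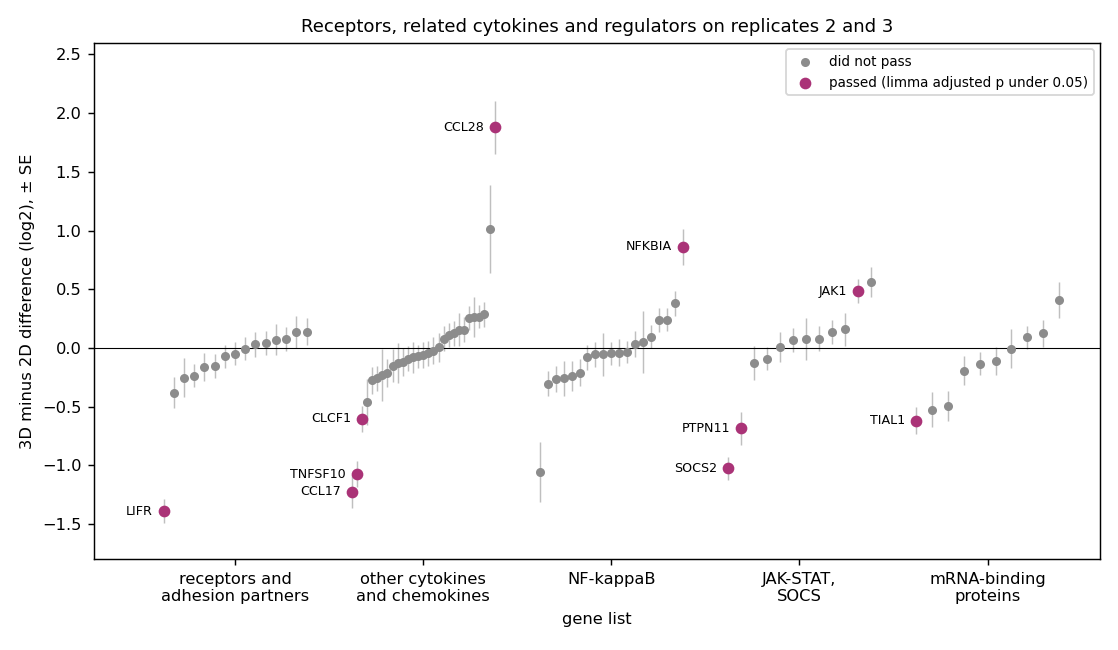
3D minus 2D difference (log2, ± SE) of each measured gene in the 5 lists on replicates 2 and 3, ordered within a list; purple points passed a limma adjusted p of 0.05. The 10 that passed, 3 above and 7 below 0, are named.

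Of 19 NF-kappaB factors, inhibitors and kinases, 1 passed as higher and 0 as lower, and 18 did not (median -0.045). NFKBIA read 10.29 and 9.89 in 2D and 11.03 and 10.87 in 3D, a rise of 0.86 (SE 0.157, limma adjusted p = 0.0344), and the replicate 1 pair differed by 0.45. The gene of the NF-kappaB subunit p105, NFKB1, differed by 0.38 (SE 0.108, limma adjusted p = 0.0983) and by -0.77 in replicate 1. BIRC3, an inhibitor of apoptosis, differed by -1.055 on its brightest probe set (SE 0.258, limma adjusted p = 0.0694), and 2 of its 4 passed.

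Of 12 JAK-STAT and SOCS genes, 1 was higher and 2 were lower, and 9 did not pass (median 0.073). SOCS2, a feedback inhibitor of cytokine and growth hormone signalling, fell from 10.16 and 10.21 to 9.13 and 9.19, a difference of -1.025 (SE 0.099, limma adjusted p = 0.00915) and of -1.14 in replicate 1. PTPN11, which encodes the phosphatase SHP2, fell by 0.685 (SE 0.143, limma adjusted p = 0.0476) but differed by 0.12 in replicate 1, and its call was lost with trend and robust priors. JAK1, the kinase of many cytokine receptors, passed on 1 of its 5 probe sets, rising by 0.485 (SE 0.103, limma adjusted p = 0.0490), and not as their mean (0.36, limma adjusted p = 0.0675); in replicate 1 that probe set differed by -0.05, and its call was lost under median centring. Of the 10 measured proteins that bind cytokine mRNAs, TIAL1, a translational repressor, fell by 0.62 (SE 0.114, limma adjusted p = 0.0348), with -0.27 in replicate 1, and 9 did not pass (median -0.122). TIA1, a related protein, did not pass on its brightest probe set (-0.525, SE 0.149, limma adjusted p = 0.0973), although 2 of its 3 probe sets did, and the brightest differed by 0.45 in replicate 1.

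Some of the 10 genes lie beside relatives in the dog genome. In the gene order of the UU_Cfam_GSD_1.0 assembly, 18 of the 20 protein-coding genes directly before and after the 10 had a named probe set. Of these 2 passed, while 7.28% of all 15115 genes did, and nothing is read from this count. IL3, beside CSF2, differed by 0.04 (SE 0.128, limma adjusted p = 0.906), whereas P4HA2 on its other side, which encodes a collagen prolyl hydroxylase, fell by 0.62 (SE 0.123, limma adjusted p = 0.0426), with -1.35 in replicate 1. CCL7, the chemokine gene beside CCL2, missed the threshold at 0.275 (SE 0.199, limma adjusted p = 0.480), and differed by 1.72 in replicate 1. ICAM5, beside ICAM1, differed by -0.02 (SE 0.174, limma adjusted p = 0.971), and OSM, the gp130 cytokine gene beside LIF, by 0.125 (SE 0.117, limma adjusted p = 0.604). AHCYL1, beside CSF1, rose by 0.635 (SE 0.116, limma adjusted p = 0.0346), with -0.39 in replicate 1. Both calls were lost when any of the 4 arrays was left out.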

How the data were processed

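Values were used as deposited, as 1 log2 level for each probe set on each array. RMA and limma are the tools in the submitters' processing notes, without versions. No source used here gives the origin of the replicate 1 scale, the probe set definition or the genome build, and no positions or sequences are printed. Of 43035 probe sets, 111 controls were left out; the platform annotation gave 1 symbol for 29254 and several for 439, and 13231 are unnamed here. Names of 9 of the 14 member probe sets, those of CSF2 and CCL2 among them, end in _s_at. This is Affymetrix's mark for probes that can match more than 1 transcript.

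The fit used limma 3.58.1 (lmFit, eBayes) in R 4.3.3 on the 4 arrays of replicates 2 and 3, two-sided, with Benjamini-Hochberg adjustment over 42924 probe sets, a threshold of 0.05 and no filter on level. The fit was tested on simulated data with equal spread in both groups and no replicate effect. That test could not check calls where the groups spread unequally, as for CSF2 and CCL2. Intervals use limma's moderated error (6.06 degrees of freedom). The number of arrays limits the precision. A listed gene was read by its brightest probe set (mean of these 4 arrays); genes that passed were named, up to 5 per list. BIRC3, TIA1, IL6ST, CSF2RA, CSF2RB, IL1B and NFKB1 and the gene neighbours were chosen after their values were seen. The members and lists were chosen with earlier results of these data known. Alternatives were 6-array fits, a replicate block, median centring, other priors, a level filter, leaving out arrays and other gene summaries. Tables were joined in pandas 2.3.3 under Python 3.11.15, and matplotlib 3.10.9 drew the plots.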

Additional observations from a re-analysis of the deposited data

How the results depend on the processing

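On replicates 2 and 3, 2837 probe sets, 4 of the 14 member probe sets and 10 of the 84 listed genes passed (10072 probe sets at an unadjusted p under 0.05). These numbers were 0, 0 and 0 with all 6 arrays as deposited without a replicate block (105 at an unadjusted p under 0.05), 2, 0 and 0 after quantile normalization of all 6, and 0, 0 and 0 with the replicate block added to it. With the replicate block on the 4 arrays they were also 0, 0 and 0 (8325 at an unadjusted p under 0.05), leaving 1 residual degree of freedom. The replicate numbers are not shown to pair the samples: the replicate 2 minus 3 differences of 2D and 3D correlated at 0.001 across probe sets. Leaving out any 1 array gave 0 for each of these counts (4683 to 10892 at an unadjusted p under 0.05), with fewer samples in each fit. Median centring, trend and robust priors and the level filter kept 3 or 4 member probe sets, the dimmer ICAM1 probe set being the one lost under trend and robust priors. Of the listed genes, JAK1 was lost under median centring and PTPN11 under trend and robust priors. CSF2, CCL2 and ICAM1 kept their direction in all 11 fits; of the other member probe sets 6 changed sign in each 6-array fit and 1 or 2 when an array was left out, and no call reversed.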

Other observations

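The gap between the monolayer cultures of replicates 2 and 3 was widest in a small set of genes that includes 2 of the genes described above. The 20 probe sets with the widest gaps, listed after the values were seen, held 14 with a name, from 9 genes: MMP13, MT1E, CDKN1A, IGSF23, CSF2, IDO1, CXCL10, UTRN and CCL2. Replicate 2 was the higher in 11 of the 20. MMP13, a collagenase, was 1.90 higher in 2D replicate 2 on both of its probe sets. IDO1, which encodes a tryptophan-degrading enzyme induced by interferon, was 1.04 to 1.23 higher there on 3 probe sets, and CXCL10, an interferon-induced chemokine, 1.09 and 1.04 higher on 2. Replicate 2 minus replicate 3 in the 3D cultures was -0.08 and 0.35 for MMP13, -0.10 to 0.23 for IDO1 and -0.62 and -0.71 for CXCL10. It was -0.47 for CSF2 and -0.25 for CCL2. A sign turned from 2D to 3D was not particular to the cytokine genes: IGSF23 had 1.31 and -0.19, and MT1E -1.84 and 0.19. Over all probe sets these differences in 2D and 3D correlated at 0.001. Since the list was chosen on the 2D gap, smaller gaps in 3D are not a finding. CXCL10 read 7.67 and 6.58 in 2D and 7.83 and 8.45 in 3D, a 3D minus 2D difference of 1.015 that did not pass (SE 0.373, limma adjusted p = 0.173), and 1.93 in replicate 1. Of the 20 probe sets 3 passed between 3D and 2D, those of CSF2, CCL2 and IGSF23, while 6.61% of all probe sets passed. The gap used to choose the 20 is part of the error in that fit, so nothing is read from this count. What differed between these cultures was not tested.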
